A study of Mus musculus with 6 samples.

Results

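The genes described here are 38 genes of DNA replication and S phase, the stage of the cell cycle in which the genome is copied, measured in mouse bone marrow-derived macrophages (BMDM). They were chosen by name from the 25124 genes of the deposited expression table, and all 38 were found in it. BMDM are macrophages grown from marrow cells in M-CSF, the colony-stimulating factor of the macrophage lineage. The series holds 6 RNA sequencing libraries in 2 groups of 3, all from wild-type C57BL/6 mice aged 8 weeks and all from cells cultured for 7 days. M2 cells received 20 ng/ml M-CSF and 10 ng/ml IL-4 for 4 h. IL-4, interleukin-4, is a cytokine of allergic and anti-helminth immunity and the usual stimulus for alternative activation. M0 cells received 20 ng/ml M-CSF alone, so both groups carried the growth factor and differed by IL-4. The libraries were made from 100 ng of total RNA after poly(A) selection. The sources used here do not say whether replicates came from separate animals or cultures, so the p-values measure the spread between these libraries, which may be technical.

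Copying of a genome begins when the origin recognition complex, Cdc6 and Cdt1 load the ring of Mcm2 to Mcm7 onto DNA in G1. Cdc45 and the GINS complex then join the ring to form the CMG helicase, which unwinds the strands ahead of primase and the replicative polymerases. Ribonucleotide reductase and other enzymes supply the building blocks, and cyclin E and the E2F factors drive the entry into S phase. Many genes of this set are known E2F targets, and M-CSF is a mitogen for macrophages in culture. IL-4 is known to limit the growth of BMDM in M-CSF. In bulk RNA, fewer cells in S phase and less RNA of these genes in each cell cannot be told apart.

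Promoter windows are shown for Mcm5, Cdt1 and Cdc6, since these licensing genes carry matches to an E2F-type site, and for Rfc5 and Dut, since these held no match. Rfc5 was the member with the smallest change among those in the promoter table, and Dut was added after its values had been seen. E2f1 was also picked for display but held no match and is not shown. The windows shown do not stand for the set, since most members without a match also fell. Each window runs from 250 bases before to 50 bases after a RefSeq start in the GRCm38.p6 build, is written 5′ to 3′ on the gene's strand, and has matches in capitals. The motifs searched on both strands were TTCCCGC or TTCGCGC or TTGGCGC or TTGCCGC, each of 7 bases, and overlapping matches were kept. Windows lie at chr8:75109259-75109558 (plus strand, Mcm5), chr8:122567765-122568064 (plus strand, Cdt1), chr11:98907901-98908200 (plus strand, Cdc6), chr5:117388974-117389273 (minus strand, Rfc5) and chr2:125247265-125247564 (plus strand, Dut). For Cdc6 and Dut the RefSeq start of the window is 350 and 267 bases downstream of the start of the transcript on which reads were counted. Both windows thus lie wholly after that start, and the bases before it were not searched. For the other genes shown these starts are the same.
Mcm5: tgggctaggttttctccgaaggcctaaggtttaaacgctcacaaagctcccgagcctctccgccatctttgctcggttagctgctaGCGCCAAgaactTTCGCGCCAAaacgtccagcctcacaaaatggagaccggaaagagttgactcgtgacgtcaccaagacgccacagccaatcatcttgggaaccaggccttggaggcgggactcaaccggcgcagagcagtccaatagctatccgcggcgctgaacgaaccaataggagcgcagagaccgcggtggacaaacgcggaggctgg
Cdt1: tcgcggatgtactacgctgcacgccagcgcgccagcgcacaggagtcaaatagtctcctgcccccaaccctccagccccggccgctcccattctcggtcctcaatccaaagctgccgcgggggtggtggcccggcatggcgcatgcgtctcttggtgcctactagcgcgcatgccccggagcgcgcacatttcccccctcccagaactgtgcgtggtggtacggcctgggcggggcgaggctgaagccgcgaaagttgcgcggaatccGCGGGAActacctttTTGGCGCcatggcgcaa
Cdc6: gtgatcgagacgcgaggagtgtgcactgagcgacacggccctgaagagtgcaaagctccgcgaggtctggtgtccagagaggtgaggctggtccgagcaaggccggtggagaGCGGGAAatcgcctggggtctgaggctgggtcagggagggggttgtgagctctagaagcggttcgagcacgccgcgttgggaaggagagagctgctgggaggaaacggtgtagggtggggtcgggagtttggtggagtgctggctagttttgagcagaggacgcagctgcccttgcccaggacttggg
Rfc5: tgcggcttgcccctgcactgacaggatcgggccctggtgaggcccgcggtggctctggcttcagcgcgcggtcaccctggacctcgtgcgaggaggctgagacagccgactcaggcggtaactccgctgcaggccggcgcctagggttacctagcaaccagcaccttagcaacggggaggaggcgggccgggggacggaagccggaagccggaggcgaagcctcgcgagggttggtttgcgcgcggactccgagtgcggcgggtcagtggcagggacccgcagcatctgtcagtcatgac
Dut: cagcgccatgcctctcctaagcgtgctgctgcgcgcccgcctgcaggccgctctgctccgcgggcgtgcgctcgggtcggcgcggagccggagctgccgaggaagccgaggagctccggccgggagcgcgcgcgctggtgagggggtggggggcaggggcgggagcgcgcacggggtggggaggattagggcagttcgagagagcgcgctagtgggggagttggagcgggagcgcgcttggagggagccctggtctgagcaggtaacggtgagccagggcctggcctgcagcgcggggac

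Positions give the first base of a match along the gene's strand, with the start as 0. In Mcm5 the matches began at -164, -152 and -149, and the one at -149 overlaps its neighbour. Cdt1 held a match at 18 and another at 33, and Cdc6 held 1 at -138. Of the 38 members, 31 had a window in the table, and 18 of these (58.1%) held at least 1 match. Among the genes tested for expression, 17.8% of 8792 windows held one, and of all 32851 windows in the table, those with a match were 9.57%. The CCAAT box, searched as CCAAT on both strands, was found in 17 of the 31 member windows (54.8%), against 38.6% of the windows of tested genes. The 18 members with an E2F-type match had a median log2 fold change of -0.88 (range -1.45 to -0.38). The 13 without one had a median of -0.49 (range -1.33 to 0.77). By the calls given below, all 18 with a match fell, and of the 13 without, 11 fell, 1 rose and 1 did not pass. Over all tested genes 45.3% fell. With the median scaling explained below, 17 of the 18 and 8 of the 13 fell, against 28.5% of all tested genes. The ranges overlap widely, and the difference was not tested. Cdc6 is in the first group and Dut in the second, both by windows that lie after the counted start. A match describes letters in a window, and binding was not measured.

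DNA replication and S phase transcripts were lower in M2 than in M0 cells in nearly the whole set. Their summed level was 593 ± 5.78 TPM in M2 libraries and 895 ± 16.6 TPM in M0 libraries (SD, n = 3 each), so the M2 sum was 66.2% of the M0 sum. TPM is the authors' abundance scaled for transcript length and depth. Of the 38 members, 35 fell, 1 rose (Dut) and 2 did not pass (Rfc2 and Rfc5), by limma on log2(TPM + 1) with Benjamini-Hochberg adjustment over all 11235 genes tested. Over those genes 45.3% fell and 17.7% rose. The median log2 fold change, M2 over M0, was -0.77 for the members and -0.15 for all tested genes. Log2 fold changes and falls or rises in log2 units are of log2(TPM + 1) throughout, unless credited to the authors. That scale makes changes of genes at few TPM look smaller, so sizes of low and abundant genes do not compare directly.

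That shift of the median over all genes bears on every small change below. Dividing each library by its median-ratio factor (0.942 to 1.09), called median scaling here, moved the median of all tested genes to 0.00. After it, 30 members fell, 3 rose (Dut, Rfc2 and Rfc5), and 5 did not pass (Gins4, Pola1, Pola2, Fen1 and E2f1). Of all tested genes, 28.5% then fell and 28.6% rose. The members' median log2 fold change was then -0.62. No member changed the sign of its fold change under any alternative tried.

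Each library held 16913185 to 19019896 reads in genes, recovered from the TPM values. Scatter between libraries was measured as chi-square over its degrees of freedom, which is 1 for counting error alone. It was 1.54 to 1.73 between M2 replicates. The value was 2.31 between M0 replicates 1 and 3, but 9.52 and 10.7 for M0 replicate 2 against them, so that library stood apart. Pairs across the groups gave 119 to 146. Without M0 replicate 2, 35 members fell and 1 rose, against a background of 46.0% and 20.1%. The members were covered by at least 36 reads in every library (the lowest being Gins1), with medians of 955.5 reads per member over the M2 libraries and 1418 over the M0 libraries.

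**Figure D1:**
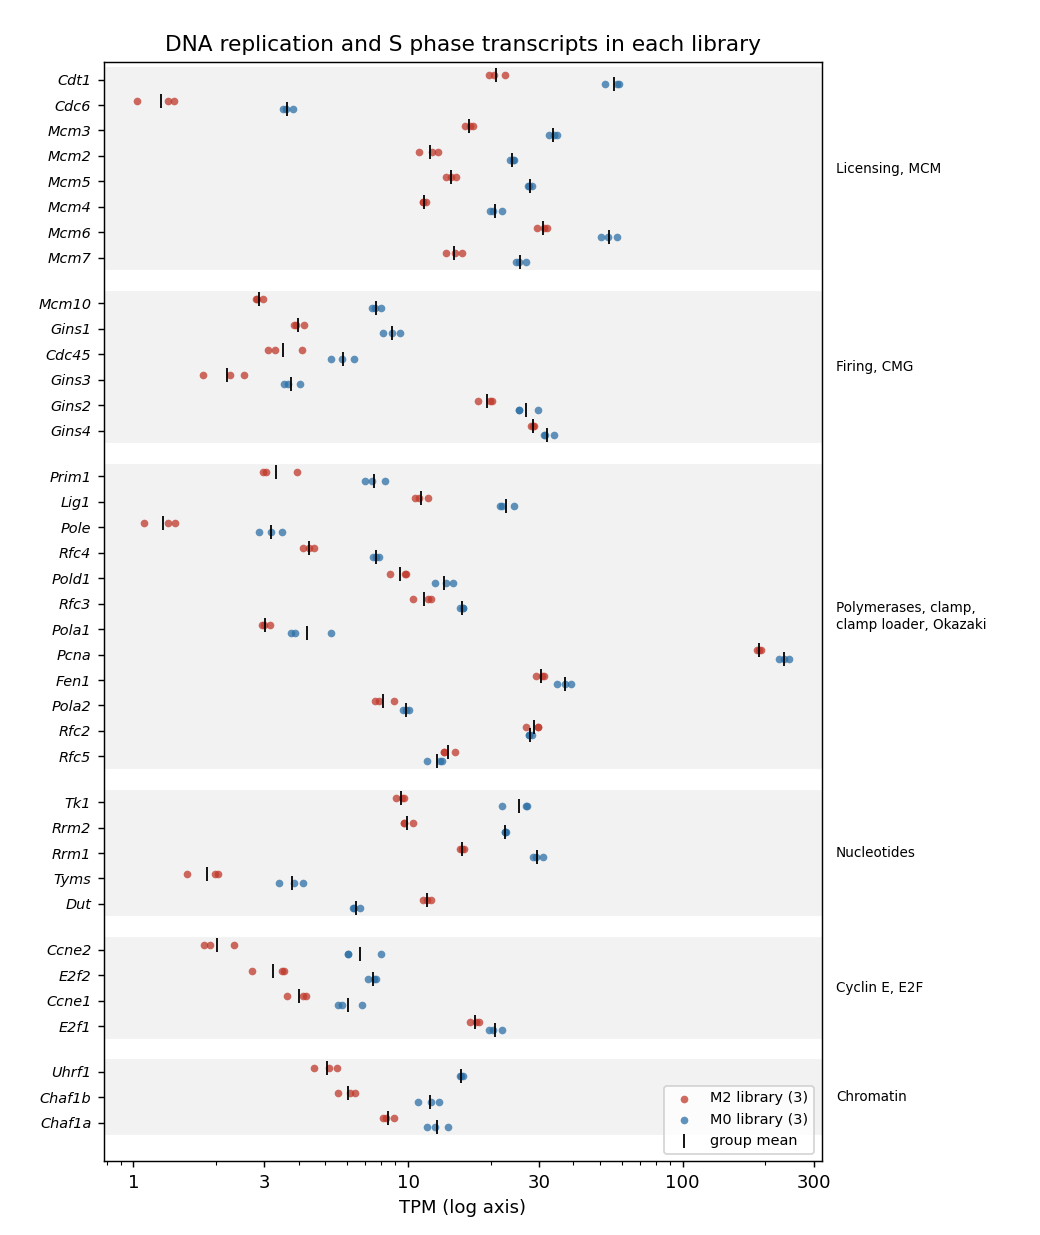
TPM on a log axis for each of the 38 genes, grouped by role, with 1 dot per library (M2 red, M0 blue) and a tick at each group's mean. In 35 genes every M2 library lies left of every M0 library; Dut and Rfc5 show the opposite order, and in Rfc2 the groups overlap.

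The groups did not overlap for any member but Rfc2. Every M2 library was below every M0 library for 35 members, against 49.8% of all tested genes, and every M2 library was above every M0 library for Dut and Rfc5, against 19.6%. In 14 members the M2 mean was at or below 50% of the M0 mean. Larger falls, of -1 or below on the log2(TPM + 1) scale, were called for 8 members (Cdc6, Cdt1, Mcm10, Rrm2, Tk1, Ccne2, E2f2 and Uhrf1), against 4.61% of all tested genes. With median scaling there were 5 such members, against 3.33%.

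The licensing genes among the members fell as a block, 8 of 8, with a median log2 fold change of -0.92 (-0.76 with median scaling). Genes of the origin recognition complex are outside the members and are given below with the other replication machinery. Cdt1, the loading factor that geminin holds in check, had 19.7, 22.5 and 20.6 TPM in M2 libraries, against 58.5, 52.2 and 57.5 TPM in M0 libraries. The groups lay far apart, and M2 cells held 37.3% of the M0 mean. Its log2 fold change was -1.38 ± 0.06 (SE, adjusted p = 3.8e-08 by limma), and -1.22 with median scaling. Cdc6, the ATPase that works with Cdt1, was much rarer, with 1.34, 1.03 and 1.41 TPM in M2 libraries and 3.59, 3.50 and 3.80 TPM in M0 libraries. It fell by 1.04 on the log2(TPM + 1) scale, which understates the change of so low a gene, and the M2 mean was 34.6% of the M0 mean.

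The 6 subunits of the Mcm2 to Mcm7 ring fell together and by similar amounts. Their summed level was 99.4, 101 and 101 TPM in M2 libraries, against 179, 194 and 184 TPM in M0 libraries, so the M2 mean was 54.1% of the M0 mean. Mcm3 had the lowest log2 fold change of the ring, at 16.9, 17.3 and 16.1 TPM in M2 libraries and 32.7, 34.8 and 34.0 TPM in M0 libraries (-0.97 ± 0.05, SE). Mcm7 had the smallest change of the 8 licensing genes, at 14.8, 15.7 and 13.7 TPM in M2 libraries and 25.3, 26.8 and 24.7 TPM in M0 libraries (-0.76 ± 0.06, SE). In percent of the M0 mean, the ring's subunits spanned only 49.4% to 57.7%. Mcm6 was the most abundant subunit in both groups, with 31.3, 29.5 and 32.2 TPM in M2 libraries and 50.2, 57.6 and 53.6 TPM in M0 libraries.

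The other ring subunits showed the same order of groups. Mcm2 had 11.0, 12.2 and 12.9 TPM in M2 libraries and 23.4, 24.1 and 24.2 TPM in M0 libraries (log2 fold change -0.94). Mcm4 had 11.6, 11.4 and 11.4 TPM in M2 libraries and 19.9, 22.0 and 20.4 TPM in M0 libraries (-0.80). Mcm5, whose promoter carries the 3 matches shown above, had 13.8, 14.3 and 15.0 TPM in M2 libraries and 27.5, 28.2 and 27.3 TPM in M0 libraries (-0.90). In none of these 3 genes did a library of one group reach the range of the other. The adjusted p of the 6 subunits lay between 1.4e-07 and 3.6e-06 by limma, and all 6 also fell with median scaling.

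The genes that turn the loaded ring into a working helicase fell to unequal degrees, 6 of 6, with a median log2 fold change of -0.59. With median scaling 5 of 6 fell. Mcm10, which is needed to activate the CMG helicase at origins, had 2.97, 2.82 and 2.79 TPM in M2 libraries, against 7.57, 7.96 and 7.41 TPM in M0 libraries. Its log2 fold change was the lowest of this group (-1.16 ± 0.07, SE, adjusted p = 3.0e-07 by limma). Cdc45, the CMG partner of the ring, fell by 0.60 on the log2 scale.

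The genes of the 4 GINS subunits, which make a complex with 1 copy of each, did not change alike. Gins1 fell by 0.96, Gins3 by 0.58 and Gins2 by 0.45 on the log2 scale. Gins4 had 28.2, 28.6 and 28.7 TPM in M2 libraries, against 31.2, 31.5 and 33.9 TPM in M0 libraries. Its groups stood close to each other without overlap, and its log2 fold change of -0.17 ± 0.05 (SE, adjusted p = 0.015 by limma) was near the median of all genes. With median scaling Gins4 was at -0.01 and did not pass (adjusted p = 0.93), and without M2 replicate 1 or M0 replicate 3 it did not pass either, at -0.16 and -0.13. The difference between GINS subunits was not tested.

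The polymerases, sliding clamp, clamp loader and Okazaki fragment enzymes had the smallest median change of the 6 role groups, -0.40, with 10 of 12 falling. With median scaling 7 fell and 2 rose. Pcna, the sliding clamp and the most abundant member, had 189, 186 and 193 TPM in M2 libraries, against 225, 244 and 234 TPM in M0 libraries. The M2 libraries were all lower, but by a modest margin, at 80.9% of the M0 mean (log2 fold change -0.30 ± 0.04, SE, adjusted p = 1.3e-04 by limma, and -0.14 with median scaling). Pcna made up 31.2% to 32.5% of the members' summed TPM in M2 libraries and 25.6% to 26.8% in M0 libraries. Without it, the M2 sum of the other 37 members was 61.0% of the M0 sum.

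Prim1, the catalytic subunit of primase, had the lowest fold change of the 12 on the log2(TPM + 1) scale, though not in percent of the M0 mean, where it was at 44.0% and Pole at 40.4%. It stood at 2.97, 3.03 and 3.94 TPM in M2 libraries, against 7.41, 8.23 and 6.96 TPM in M0 libraries (-0.99 ± 0.10, SE, adjusted p = 1.4e-05 by limma). Every M2 library was well below the lowest M0 library. Its partners in the polymerase alpha-primase complex had log2 fold changes nearer to 0. Pola1, the polymerase subunit, fell by 0.38 and Pola2, the accessory subunit, by 0.26 on the log2 scale, and neither passed with median scaling (adjusted p = 0.056 and 0.26 by limma). Pola2 also missed the threshold without M2 replicate 2 (-0.21) or M2 replicate 3 (-0.24). Prim2, the other primase gene, is outside the members. It fell by 0.38 (adjusted p = 0.0050 by limma), and by 0.23 with median scaling (adjusted p = 0.041 by limma).

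Pole, the catalytic subunit of the polymerase of the leading strand, fell by 0.87 on the log2(TPM + 1) scale, to 40.4% of the M0 mean. Pold1, the catalytic subunit of the polymerase of the lagging strand, fell by 0.49. Lig1, the ligase that joins Okazaki fragments, fell by 0.96 to 49.2% of the M0 mean. Fen1, the flap nuclease that trims those fragments, fell by 0.28 and stood at -0.11 without a call after median scaling (adjusted p = 0.15 by limma).

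The 4 clamp loader genes among the members split within themselves. Rfc4 fell by 0.69 and Rfc3 by 0.43 on the log2 scale. Rfc2 had 29.7, 29.7 and 27.0 TPM in M2 libraries, against 27.6, 28.2 and 27.7 TPM in M0 libraries, so its groups overlapped (log2 fold change 0.05 ± 0.06, SE, adjusted p = 0.48 by limma). Rfc5 had 13.5, 14.8 and 13.6 TPM in M2 libraries, against 13.3, 13.1 and 11.7 TPM in M0 libraries. Its groups did not overlap but nearly touched (0.13 ± 0.07, SE, adjusted p = 0.14 by limma). With median scaling Rfc2 (0.21, adjusted p = 0.0074) and Rfc5 (0.28, adjusted p = 0.0042) both rose by limma. The 4 genes summed to 58.6 ± 2.89 TPM in M2 libraries and 63.9 ± 1.37 TPM in M0 libraries (SD, n = 3 each), 91.7% of M0, whereas the 6 ring genes were at 54.1%. Rfc1, also of the clamp loader, is outside the members and not in this sum. It fell by 0.29 (adjusted p = 0.014 by limma) and had no call with median scaling (-0.13).

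Among the 5 genes of nucleotide supply, 4 fell and Dut rose, under both scalings. Tk1, the thymidine kinase of the cytosol, had 9.54, 9.71 and 9.02 TPM in M2 libraries, against 26.8, 22.0 and 27.1 TPM in M0 libraries. The M2 mean was 37.3% of the M0 mean, and M0 replicate 2 was the lowest of its group (log2 fold change -1.33 ± 0.08, SE, adjusted p = 2.9e-07 by limma). Both subunits of ribonucleotide reductase fell, the catalytic Rrm1 and the small subunit Rrm2. Rrm1 had 15.8, 16.0 and 15.5 TPM in M2 libraries, against 28.6, 31.0 and 29.2 TPM in M0 libraries (-0.87). Rrm2 was at 43.9% of the M0 mean (-1.11). Tyms, thymidylate synthase, had the smallest change among the genes of this group that fell on the log2(TPM + 1) scale, with 1.98, 2.03 and 1.57 TPM in M2 libraries and 3.39, 4.16 and 3.85 TPM in M0 libraries (-0.75). In percent of the M0 mean the order differed, with Tyms at 49.0% and Rrm1 at 53.2%. The reads of Tyms were counted on NR_033402, which RefSeq lists as a non-coding transcript.

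Dut was the exception of the set. It encodes the dUTPase, which breaks down dUTP so that uracil is kept out of DNA. It had 11.3, 11.7 and 12.1 TPM in M2 libraries, against 6.29, 6.36 and 6.70 TPM in M0 libraries. The lowest M2 library was far above the highest M0 library, and the M2 mean was 182% of the M0 mean. Its log2 fold change was 0.77 ± 0.07 (SE, adjusted p = 3.2e-06 by limma) and 0.92 with median scaling. The authors' deposited table gives a log2 fold change of 1.01 with an adjusted p of 7.9e-18. The TPM were counted on NM_001159646, at chr2:125247248-125259049 on the plus strand of mm10, and the authors' deposited table used NM_023595. Whether the forms of Dut changed alike was not tested.

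The genes that drive entry into S phase fell, 4 of 4, and 3 of 4 with median scaling. Ccne2, a cyclin E gene, had 1.81, 2.32 and 1.90 TPM in M2 libraries, against 6.03, 7.99 and 6.06 TPM in M0 libraries. The M2 mean was 30.1% of the M0 mean, the lowest share among the 38, and M0 replicate 2 was the highest library (log2 fold change -1.35 ± 0.11, SE, adjusted p = 3.1e-06 by limma). Ccne1, the other cyclin E gene, had 4.15, 3.64 and 4.24 TPM in M2 libraries, against 5.75, 6.81 and 5.55 TPM in M0 libraries. It fell less, by 0.49 on the log2 scale.

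The activator E2F genes E2f1 and E2f2 also fell by different amounts. E2f2 had 3.53, 2.70 and 3.47 TPM in M2 libraries, against 7.63, 7.55 and 7.13 TPM in M0 libraries and fell by 1.00 ± 0.09 (SE) on the log2 scale. E2f1 had 16.8, 17.7 and 18.1 TPM in M2 libraries, against 20.4, 21.9 and 19.7 TPM in M0 libraries (-0.22 ± 0.06, SE, adjusted p = 0.0090 by limma). The E2f1 groups were close but apart, and after median scaling its fold change was -0.06 with no call (adjusted p = 0.34). Per length of transcript E2f1 remained the more abundant of the pair in both groups.

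The replication-coupled chromatin genes fell, 3 of 3, under both scalings. Uhrf1, which recognises hemimethylated DNA behind the fork and brings in the maintenance methyltransferase, had 4.53, 5.52 and 5.17 TPM in M2 libraries, against 15.4, 15.6 and 15.8 TPM in M0 libraries. The M2 mean was 32.5% of the M0 mean, and its fold change on the log2(TPM + 1) scale was the lowest of all 38 (-1.45 ± 0.08, SE, adjusted p = 8.4e-08 by limma). Chaf1b and Chaf1a are subunits of the CAF-1 complex, which deposits histones on new DNA. Chaf1b fell by 0.89 to 50.3% of the M0 mean. Chaf1a had 8.32, 8.91 and 8.13 TPM in M2 libraries, against 11.7, 12.5 and 14.0 TPM in M0 libraries, and fell by 0.54.

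**Figure D2:**
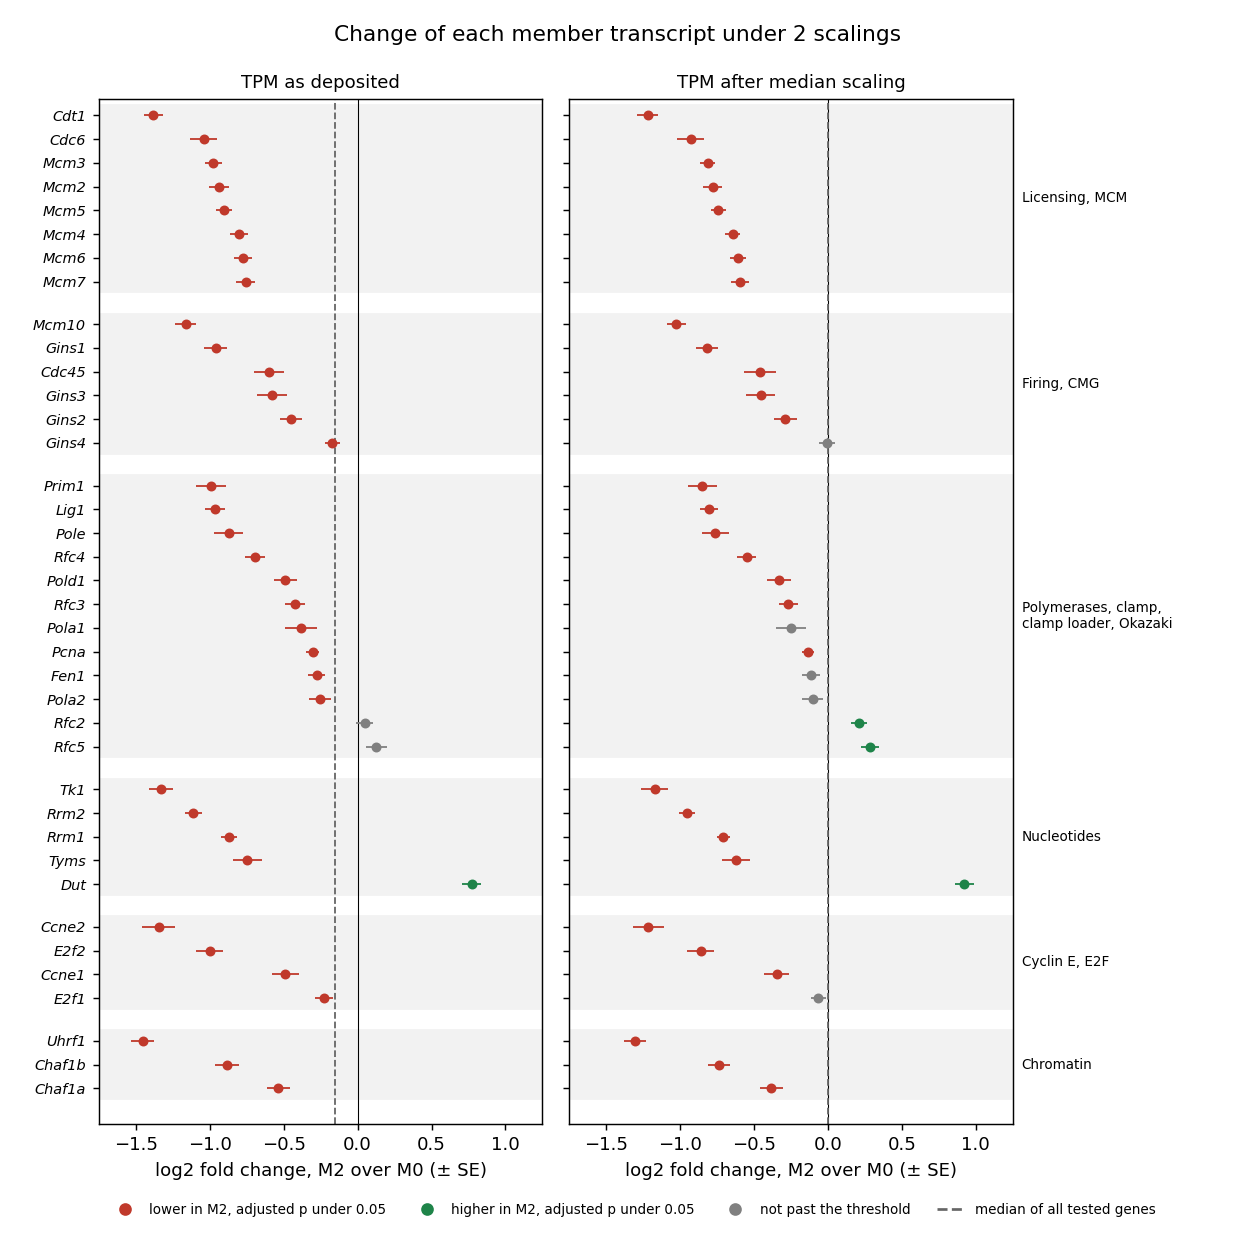
Log2 fold change, M2 over M0, with its SE for each of the 38 genes, from TPM as deposited (left) and after median scaling (right), coloured by call; the dashed line is the median of all tested genes. On the left 35 genes fell and Dut rose; on the right 30 fell, Rfc2, Rfc5 and Dut rose, and Gins4, Pola1, Pola2, Fen1 and E2f1 were not called.

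The order of levels within the set was largely kept. Over the 38 genes, the Spearman correlation of mean TPM between M2 and M0 was 0.92, a description across genes that share libraries and are not independent. Mean levels ran between 1.26 TPM (Cdc6) and 189 TPM (Pcna) in M2 cells, and between 3.18 TPM (Pole) and 234 TPM (Pcna) in M0 cells. Of the 5 most abundant members in each group, 3 were shared: Pcna, Mcm6 and Fen1. Cdt1, next after Pcna in M0 cells, was not among the first 5 in M2 cells, where Rfc2 and Gins4 entered.

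Replicates varied little beside the difference between groups. The median coefficient of variation of the members was 5.59% in M2 cells and 5.59% in M0 cells. M0 replicate 2 was the highest library of its group for 22 of the 38 members, and M2 replicate 2 for 18. These counts were not made over all tested genes, and M0 replicate 2 stood apart over all genes. They are therefore not read as a trait of the members. The median deviation from the group mean was 0.03 on the log2 scale for M0 replicate 2 and 0.04 for M2 replicate 2. The members' summed TPM was 586, 597 and 595 in M2 libraries, against 878, 911 and 898 in M0 libraries.

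**Figure D3:**
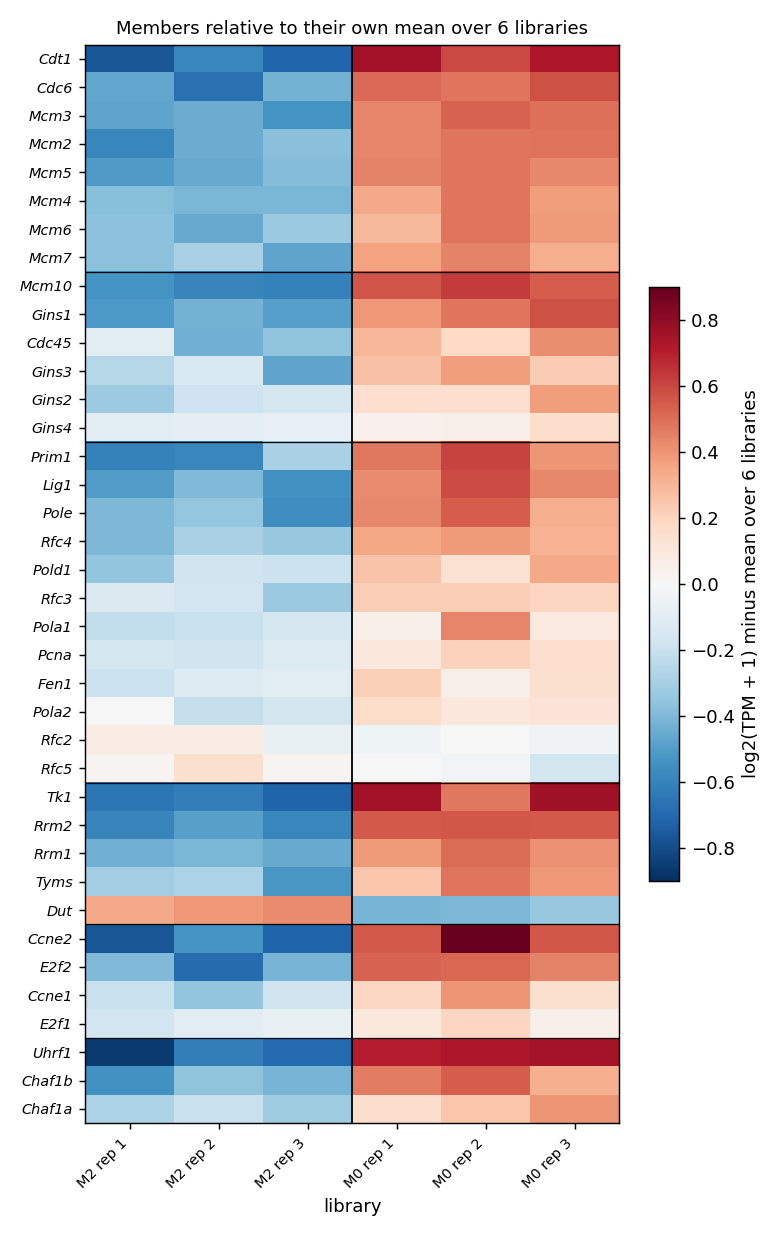
Log2(TPM + 1) of each gene minus its mean over the 6 libraries, with M2 libraries left of the line and M0 libraries right of it, and roles separated by horizontal lines. Most rows are blue in all 3 M2 libraries and red in all 3 M0 libraries; Dut is reversed, and Rfc2, Rfc5 and Gins4 are pale.

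The authors' deposited table of the same comparison lists 30 of the members as lower in M2 and 3 as higher (Dut, Rfc2 and Rfc5) at its adjusted p under 0.05. Those 30 differ from the 30 that fell with median scaling. Pola1 was lower in the authors' table (authors' adjusted p = 0.032), and Rfc3 missed its threshold (authors' adjusted p = 0.057). Of the genes tested here, 25.8% were lower and 25.8% higher in it. For 7 members that table used another RefSeq transcript than the TPM table (Mcm6, Ccne2, E2f2, Cdc6, Gins1, Uhrf1 and Dut). The authors' log2 fold change for Uhrf1 was -1.40 and for Ccne2 -1.52 in the deposited table.

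Other genes of replication and the cell cycle were counted from lists outside the 38. Some of their genes averaged under 1 TPM in M2 cells and passed the filter on low values (1 TPM in 3 libraries) through M0 cells, where they were higher, so their falls are no support. This held for 0 of the 38 members. In the other replication machinery, 31 of 40 genes fell and 4 rose, with a median log2 fold change of -0.40 (24 and 4 with median scaling). Of those that fell, 5 had passed the filter through M0. Among genes of the origin recognition complex, Orc6 fell by 0.80 and Orc1, which had passed through M0, by 0.43. Orc2 fell by 0.36, Orc3 by 0.31, Orc5 by 0.23 and Orc4 by 0.22. Orc3, Orc4 and Orc5 had no call with median scaling. Tipin, Timeless and Clspn, which protect and signal from stalled forks, fell by 1.16, 1.04 and 1.00, and Gmnn, the geminin that restrains Cdt1, fell by 0.96. The genes that rose were Rnaseh2a, a subunit of ribonuclease H2 (0.48), Donson, which helps to assemble CMG (0.28), Ctc1, of the telomere CST complex (0.23), and Pold4, a small polymerase delta subunit (0.19). None of the 4 lost its call with median scaling, but without M2 replicate 2 only 1 gene of this list rose, and without M2 replicate 3 only 2 did.

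In nucleotide metabolism outside the members, 20 of 26 genes fell and 2 rose, with a median of -0.35 (15 and 4 with median scaling). Of those that fell, 2 had passed through M0, Dctd among them. Ctps, which makes CTP, fell by 1.23, Dctd, which makes dUMP, by 0.89, Umps, of pyrimidine synthesis, by 0.76, and Impdh1, of guanine nucleotide synthesis, by 0.63. Dck, which salvages deoxycytidine, and Samhd1, which breaks down dNTPs, rose by 0.57 and 0.41. Dck had 48.0, 46.0 and 46.5 TPM in M2 libraries, against 32.1, 34.1 and 27.9 TPM in M0 libraries. Samhd1 had 131, 124 and 128 TPM in M2 libraries, against 98.0, 102 and 87.7 TPM in M0 libraries. Rises were thus few among the nucleotide enzymes, with Dut among the members and Dck and Samhd1 in this list. Over all tested genes 17.7% rose and 45.3% fell.

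In the list of S phase checkpoint and replication-coupled repair, 23 of 26 genes could be tested, 19 fell and 0 rose, with a median of -0.58 (16 fell and 1 rose with median scaling). Dtl, the adaptor that targets Cdt1 for destruction on chromatin, fell by 1.16, Rad51ap1 by 1.15, Pclaf, a partner of Pcna, by 0.98, and the checkpoint kinase Chek1 by 0.94. Of the 19, 4 had passed through M0 (Chek1, Bard1, Brip1 and Fancd2), and of the 19 other tested genes 15 fell. Chromatin genes outside the members fell in 16 of 16, with a median of -0.58 (14 with median scaling). Cdca7 fell by 1.82 and its partner Hells, a chromatin remodeller, by 1.44, and Atad2 and the histone chaperone Asf1b fell by 0.94 and 0.87.

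Of the E2F, RB and pocket protein genes, 12 of 16 fell and 1 rose, with a median of -0.45 (10 and 2 with median scaling). Of those that fell, 2 had passed through M0 (E2f7 and Mybl2). Lin9, of the DREAM and MuvB complexes, fell by 1.03, and the repressor E2f8 fell by 0.94. Tfdp1, the partner of the E2F factors, fell by 0.75, E2f3 by 0.70, E2f7 by 0.69 and E2f4 by 0.41. In percent of the M0 mean, E2f7, a low gene, was at 40.3% and E2f3 at 56.9%. Among the pocket proteins Rbl1 fell by 0.43. Rb1 fell by 0.30 and was without a call after median scaling (-0.14), whereas Rbl2 rose by 0.38. Rbl2 had 24.5, 22.8 and 24.3 TPM in M2 libraries, against 17.6, 19.7 and 17.3 TPM in M0 libraries.

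Among G1 and S cyclins, cyclin-dependent kinases (CDKs), phosphatases and CDK inhibitors, 12 of 18 fell and 3 rose, with a median of -0.62 and the same counts under median scaling. Ccnd1, the cyclin D1 through which mitogens act on RB, had 48.6, 50.6 and 47.9 TPM in M2 libraries, against 227, 239 and 217 TPM in M0 libraries (log2 fold change -2.19). Ccna2, the S phase cyclin, fell by 1.30, the phosphatase Cdc25a by 1.08, the factor Myc by 1.07 and Ccnd2, which had passed through M0, by 0.64. In percent of the M0 mean, Ccnd2, a low gene, was at 39.4% and Myc at 45.7%. The CDK inhibitors of the list did not move as a class. Cdkn2c fell by 0.71, Cdkn2d by 0.71 and Cdkn1c by 0.48, and Cdkn2b did not pass (-0.15). The 3 genes of the list that rose were inhibitors too. Cdkn1a (p21) had 493, 506 and 511 TPM in M2 libraries, against 306, 276 and 299 TPM in M0 libraries (0.78), and Cdkn1b (p27) and Cdkn2a rose by 0.47 and 0.24.

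The genes of G2 and mitosis fell further than the members by median, at -1.15, with 41 of 42 falling and 0 rising under both scalings. Tpx2 fell by 1.57, Plk1 by 1.46, Prc1 by 1.43, Anln by 1.41, Mki67, the Ki-67 gene, by 1.36 and Top2a by 1.33. Smc4 was the gene without a call (-0.17). The difference between that list and the members was not tested, and all comparisons rest on the same 6 libraries. Together the 7 lists held 181 tested genes, of which 151 fell and 10 rose, against 45.3% and 17.7% of all tested genes. The 151 and the list medians include the genes that passed the filter through M0, counted above for each list, and Cdca7. The falls of those genes are no support.

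**Figure D4:**
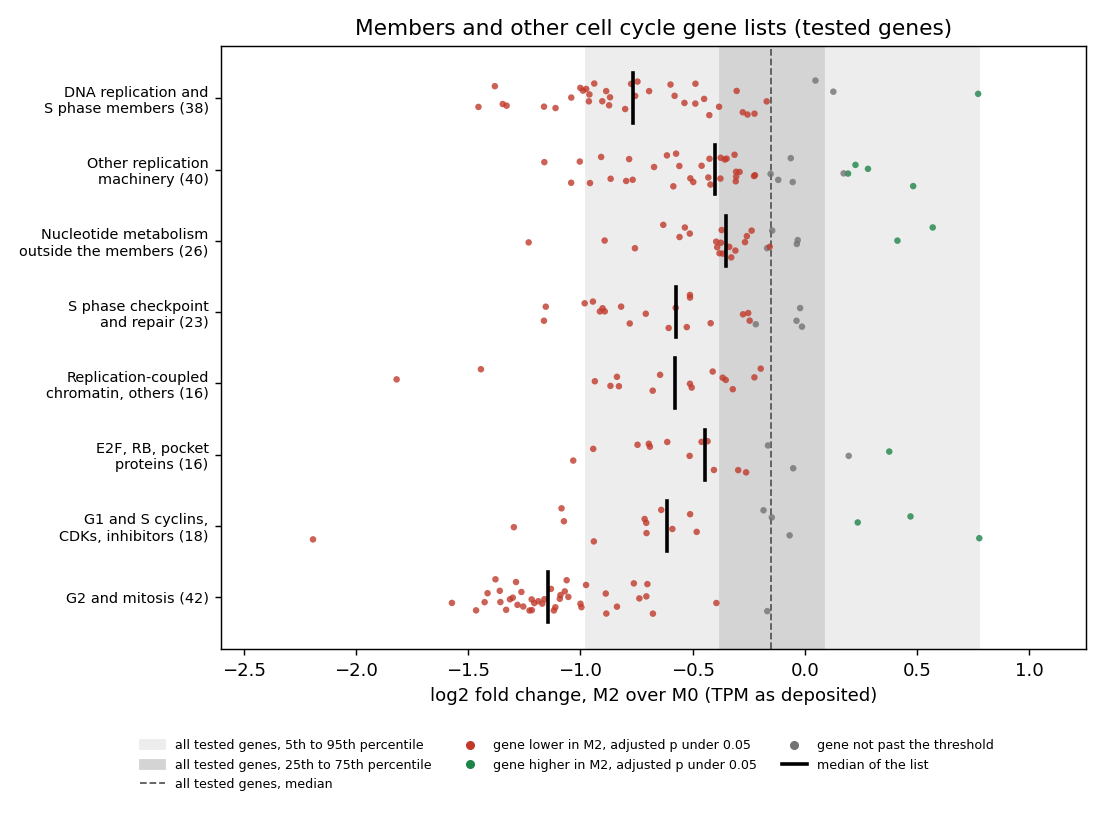
Log2 fold change, M2 over M0, from TPM as deposited, for the tested genes of the 38 and of 7 other lists, with 1 dot per gene coloured by call and a bar at each median, over bands for all tested genes. The median of the 38 genes is -0.77, between the -0.40 of the other replication machinery and the -1.15 of G2 and mitosis; all tested genes have a median of -0.15.

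The libraries carried the markers of macrophages and few of other marrow cells. All 10 macrophage markers were tested, and 5 fell and 3 rose (3 and 4 with median scaling). Their summed level was 15610 to 15987 TPM in M2 libraries and 16877 to 17973 TPM in M0 libraries. Most of it was Lyz2, with means of 12051 TPM in M2 and 13744 TPM in M0 libraries. Fcgr1, an Fc receptor gene, fell to 16.1% of the M0 mean, Cd14 to 41.4% and Aif1 to 50.7%, while Csf1r, the M-CSF receptor gene, rose to 135%. Adgre1, the F4/80 gene, had 525, 543 and 534 TPM in M2 libraries, against 517, 586 and 505 TPM in M0 libraries. Of 10 markers of myeloid progenitors, cells that divide, 9 were under 1 TPM in every library, and the list summed to 1.43 to 1.98 TPM in M2 libraries and 1.85 to 2.73 TPM in M0 libraries. The progenitor markers differed in direction at these low levels. Cd34 was at 0.42 to 0.57 TPM in M2 libraries and 1.05 to 1.40 TPM in M0 libraries, and Kit at 0.06 to 0.11 TPM in M2 libraries and 0.26 to 0.33 TPM in M0 libraries. Prtn3 was at 0.32 to 0.42 TPM in M2 libraries and 0.07 to 0.29 TPM in M0 libraries, and Myb at 0.07 to 0.08 TPM in M2 libraries and 0.00 to 0.06 TPM in M0 libraries. Cd34 was the only one tested and passed the filter through M0, so no call is drawn from it. In the other 6 the groups overlapped.

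Lists of other cell types were mostly low. The 9 neutrophil markers summed to 49.7 to 57.4 TPM in M2 libraries and 49.1 to 59.1 TPM in M0 libraries. Of 6 tested, 0 passed, and 1 (Mmp8) rose with median scaling. Cxcr2, of the same list and too low to be tested, was at 0.76 to 1.10 TPM in M2 libraries and 0.02 to 0.11 TPM in M0 libraries. The T and NK cell list summed to at most 0.35 TPM in M2 libraries and 0.59 TPM in M0 libraries, and the B cell list to at most 1.65 TPM in M2 libraries and 2.03 TPM in M0 libraries. The stromal list summed to 7.63 to 8.27 TPM in M2 libraries and 9.83 to 10.4 TPM in M0 libraries, and 2 of 2 tested genes fell (1 with median scaling). Of the 10 erythroid and megakaryocyte markers 5 were listed at 0, among them the globin genes Hba-a1, Hbb-bs and Hbb-bt, and nearly all of the list's sum was Pf4, at 406 to 425 TPM in M2 libraries and 703 to 859 TPM in M0 libraries (log2 fold change -0.91). The dendritic cell list summed to 227 to 238 TPM in M2 libraries and 273 to 345 TPM in M0 libraries, nearly all of it Bst2, which fell by 0.43. Zbtb46, of the same list and too low to be tested, was at 1.00 to 1.12 TPM in M2 libraries and 0.04 to 0.13 TPM in M0 libraries. The part of these markers in the members' changes was not tested.

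Some members share transcribed bases with a gene on the opposite strand, and whether reads were counted by strand is not given in the sources used here. By GENCODE exons the shared part was 88.7% of Fen1 (Gm10143), 70.7% of Gins2 (Gse1), 23.1% of Chaf1a (Ubxn6), 20.9% of Ccne2 (Ints8) and 13.4% of Rfc4 (Eif4a2). It was 7.89% of Cdc45 (Ufd1), 5.76% of Tk1 (Afmid), 2.16% of Mcm7 (Cops6) and 1.09% of Pole. Among these partners Gse1 fell by 0.42 and Ints8 by 0.66, Ubxn6 did not pass (0.11), and Eif4a2 rose by 0.20. The values of Fen1 and Gins2 are the most uncertain for this reason. Cdc6 and E2f2 had no matching GENCODE transcript, so their overlap was not measured.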

How the data were processed

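Per the labels' protocols, polyadenylated RNA of M2 and M0 BMDM was sequenced, and groups and replicate numbers came from the sample titles. The submitters' processing notes name the build mm10 and the tools STAR, HOMER 4.11.1, DESeq2 and bcl2fastq, with settings not given in the sources used here. The authors deposited TPM per library and gene, counted on 1 RefSeq transcript per gene per the file headers. The TPM of a library sum to 542749 to 553186, so the table is short of a full total. The authors' deposited comparison table gives log2 values for each library, log2 fold changes, p-values and adjusted p-values, with no transformation named in the header. Its sign was checked against the library means as M2 minus M0. Commas had shifted 3 rows, which were realigned.

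TPM multiplied by transcript length came out as whole reads, within 0.1 read, for 99.8% to 99.9% of values, and depths are these recovered reads. Groups were compared with limma-trend (R 4.3.3 and limma 3.58.1, robust, two-sided) on log2(TPM + 1), for genes with at least 1 TPM in at least 3 libraries, with group as the only term and adjustment over all 11235 genes tested. A gene rose or fell at an adjusted p under 0.05. Promoters came from RefSeq (GRCm38.p6) and exon overlaps from GENCODE M21. The fit was also run on simulated reads, made without an outlying library or a shift over all genes. That run therefore does not bear on M0 replicate 2 or on the shift of the median.

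The members and all lists were chosen with earlier results of these data known. All members are named. Library values are given for the most abundant member, the largest fall and the smallest change of each role, for Mcm2 to Mcm7, and for cyclin E and E2F genes. From each other list up to 4 genes with the largest change are named, with any that moved the other way and a set of cell cycle genes. Genes of the origin recognition complex, Rfc1 and Prim2 are named as well, since they belong to complexes described for the members. Of 296 list symbols 292 were found. Alternatives were pseudocounts of 0.1 and 5, no filter, at least 50 reads, median scaling, limma-voom on recovered reads, the authors' log2 values, a replicate block with and without median scaling, and each library left out.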

Additional observations from a re-analysis of the deposited data

How the results depend on the processing

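Of the 38 members, 31 kept their direction and side of the threshold under all 15 alternatives, and the 7 others were Gins4, Pola1, Pola2, Rfc2, Rfc5, Fen1 and E2f1. The authors' own adjusted p-values were not among these alternatives. Members that rose numbered 3 with median scaling, with limma-voom on recovered reads, with the authors' log2 values and with the replicate block on median-scaled TPM, against 1 otherwise. Over all genes, 3205 fell and 3208 rose with median scaling, 3297 and 3272 with limma-voom, 3323 and 3318 with the authors' log2 values, and 3057 and 3082 with the replicate block on median-scaled TPM, against 5088 and 1983 from TPM as deposited. The cause was not tested: limma-voom also changes the input and the model, and the transformation behind the authors' values is not named. Leaving out 1 library gave 34 to 35 members that fell and 1 that rose. It gave 140 to 145 genes of the other 7 lists that fell and 6 to 10 that rose, and over all genes 4456 to 5062 that fell and 1608 to 2214 that rose. The falls counted in the 7 lists include genes that passed the filter through M0. The lowest count of rises in the other lists, 6, came without M2 replicate 2, and the cause was not tested.

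Replicate numbers are shared between the groups, but libraries with the same number did not deviate together (r = 0.005, -0.005 and -0.043 across genes). The numbers were therefore not taken to pair the samples. With the replicate block, 35 members fell and 1 rose, and over all genes 4963 fell and 1953 rose. Depth limits the rarest members, with 36 reads of Gins1, 66 of Prim1 and 71 each of Gins3 and Cdc6 in their shallowest libraries.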

Other observations

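Histone genes were looked at after their values had been seen, and some were higher in M2 cells. They were found by symbols that start with Hist1h, Hist2h, Hist3h or Hist4h. Many replication-type histone genes, which are transcribed in S phase, have such symbols. The pattern is not limited to that type, since it takes in Hist3h2bb-ps, and histone genes with other symbols were left out. The table holds 69 symbols of this pattern, and 10 passed the filter on low values, 5 of them with a mean under 1 TPM in M0 cells. No count of calls is drawn from these. Values are given for the 3 most abundant. Hist1h1c, a linker histone gene, had 164, 170 and 166 TPM in M2 libraries, against 80.7, 76.8 and 80.9 TPM in M0 libraries (log2 fold change 1.06). Hist1h2bc had 96.4, 99.3 and 92.1 TPM in M2 libraries, against 52.8, 53.5 and 47.7 TPM in M0 libraries (0.89). Hist3h2a had 56.8, 56.2 and 56.3 TPM in M2 libraries, against 42.1, 39.8 and 43.2 TPM in M0 libraries (0.43). Most messages of replication-type histone genes lack a poly(A) tail, and these libraries were made by poly(A) selection, so their levels cover polyadenylated forms. The 59 other symbols of the pattern were not tested because they were too low.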
